A study of Mus musculus with 2 samples.

Results

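Sustentacular cells, the non-neuronal supporting cells of the vomeronasal sensory epithelium, were taken from the single-cell counts by a gate on 4 kinds of transcript. A cell qualified with at least 10 UMIs (unique molecular identifiers, each standing for 1 captured mRNA molecule) of *Cyp2a5* and *Cyp2g1* together, at least 1 of *Sox2*, under 5 of all Vmn1r and Vmn2r receptor genes summed and under 5 of *Krt5*. Only barcodes with 200 to 9000 genes and at most 5% of UMIs from mitochondrial genes were considered. This gave 213 cells of 10591 filtered cells (2.01%, exact binomial 95% CI 1.75% to 2.30%, counting error only) and of 24084 barcodes in all, 109 in library 1 and 104 in library 2. The cells were thus selected on the measured counts of the gate's genes, whose levels are a description and no result.

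The data come from the whole vomeronasal organ (VNO), the chemosensory organ that detects pheromones, of C57BL/6J wild-type male mice at postnatal day 60. Both libraries are of the same genotype, sex, age and tissue with no treatment, so every comparison is between cell groups within the same 2 libraries. The study dissociated 5 male mice in total, and no source used here says how the mice were divided between the libraries. Cells were frozen before capture, and 3′ ends were counted on the 10x Genomics Chromium platform. The study used these data to follow Notch signaling while progenitors become apical or basal vomeronasal sensory neurons (VSNs).

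Sustentacular cell bodies line the luminal side of the sensory epithelium and send processes between the neurons down to its base. They are known for detoxifying enzymes, for ion and water balance, for clearing debris and for barrier contacts. In sensory epithelia Notch signaling is known to separate supporting from neuronal fates: ligands on one cell (Dll and Jag genes) activate Notch receptors on its neighbor, and the released intracellular domain switches on repressors such as *Hes1*, *Hes5* and *Hey1*.

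Each barcode belonged to 1 of 2 libraries of 108005626 and 95442231 UMIs. The libraries shared 33 barcode sequences, 1 of them of a sustentacular cell. Sustentacular cells held a median of 13031 UMIs and 3415 genes, at a median mitochondrial share of 4.33%. Scrublet called 10 of the 213 as doublets. The mitochondrial limit took a larger share of these cells than of any other group compared here. Of cells that met the gate at any mitochondrial share, it kept 16.0% and 17.7% in the 2 libraries, against 60.2% and 53.3% of mature VSNs, 25.8% and 22% of Krt19+ non-sensory cells and 69.0% and 70.2% of macrophages. The 834 cells that met the gate at 5 to 10% mitochondrial UMIs were therefore used as a second look from the same libraries.

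The label held for some of its markers and not for others. *Fezf2* (a transcription factor of chemosensory supporting cells, ENSMUSG00000021743, chr14:12342094-12348189, minus strand of mm10) was not used by the gate and had a UMI in 172 of 213 cells (80.8%, 95% CI 74.8% to 85.8%). The same gene had a UMI in 13.5% of mature VSNs and 1.24% of macrophages, at median depths of 14610 and 4947 UMIs. *Krt18*, a keratin of simple epithelia, had a UMI in all 213 cells, as it did in all 150 Krt19+ non-sensory cells. *Cyp2g1*, by contrast, had a UMI in 4 of 213 cells and never more than 1, so the enzyme part of the gate rested on *Cyp2a5* (median 24 UMIs, range 10 to 295). *Cyp2a5* (ENSMUSG00000005547, chr7:26835305-26843548, plus strand) has a near-identical copy, *Cyp2a4*, which had no UMI in these cells, and how the counting split reads between the copies is uncertain. Of other cell types, the 6 macrophage markers summed to 320.4 and 216 UMIs per 1000000 UMIs (CPM) in sustentacular cells against 25274 and 23809 in macrophages. The 10 mature VSN markers summed to 1016 and 992 in sustentacular cells against 9566 and 8927 in VSNs. They were at 291 and 490 in Krt19+ non-sensory cells, 266 and 282 in Krt5+ basal cells and 941 and 907 in macrophages, so they are not confined to neurons. The part of neuronal RNA in the comparisons below was not tested. Red cell markers were at 0 (0 of 3), and 1 of 5 T and B cell markers had a UMI. The 7 gland markers summed to 69516 and 18624 CPM, which is described with the secreted proteins.

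Cells just outside and just inside the gate were much alike in their medians. The 27 cells with 7 to 9 *Cyp2a5* and *Cyp2g1* UMIs had a median of 2 *Fezf2* and 92 *Krt18* UMIs, and the 40 cells with 10 to 12 had 3.5 and 85. Another 793 cells failed the enzyme criterion alone, 22 the *Sox2* criterion alone and 15 the *Krt5* limit alone. The receptor limit alone excluded 204 cells at a median of 30557.5 UMIs, of which 195 had a *Fezf2* UMI and 193 an *Omp* UMI, the marker of mature sensory neurons. Scrublet called 4 of those 204 doublets.

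Sustentacular cells were compared with 3 groups gated on other genes of the same filtered cells. These were 675 mature VSNs (372 and 303 by library), 150 Krt19+ and Serpina1e+ cells of the non-sensory epithelium (81 and 69) and 229 neural progenitors and precursors (123 and 106) gated on early neurogenic genes, *Neurog1* and *Neurod1* among them. Krt5+ basal cells (711 and 657) and macrophages (796 and 731) gave further levels. UMIs were summed per library and group and tested with the quasi-likelihood test of edgeR, adjusting p-values by Benjamini-Hochberg over all genes tested, at a threshold of 0.05. The p-values measure only the spread between these 2 libraries, which may be technical. All groups were cut from expression in these same cells and the 3 comparisons share the sustentacular sums, so part of each difference is built in and each comparison is given on its own. Of 12422 genes tested against the non-sensory cells, 1468 were called (11.8%), 743 higher (5.98%) and 725 lower (5.84%). Against mature VSNs 7866 of 14587 were called (53.9%), 3742 higher (25.7%) and 4124 lower (28.3%), and against progenitors and precursors 6590 of 13367 (49.3%), 3497 higher (26.2%) and 3093 lower (23.1%). The non-sensory epithelium was thus the closest of the 3 groups by this count, and most comparisons below are with it. These shares of all genes are the background of every list count below. Levels are CPM in library 1 and library 2, by total UMIs alone. Fold changes are from the edgeR fit with its TMM size factors (trimmed mean of M-values). A fold change can therefore differ from the ratio of the printed levels. Where it is near 0 the sign can differ too, as for *Hey1* against non-sensory cells. Each UMI is 1 molecule counted at its 3′ end, so levels need no division by gene length.

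The genes of MHC class II antigen presentation stood out among sustentacular cells. *Cd74*, the invariant chain that chaperones class II molecules, was at 6159 and 4823 CPM, the 10th highest gene of these cells once ribosomal and mitochondrial genes were left aside. It was at 349 and 447 CPM in non-sensory cells, 649 and 642 in mature VSNs, 207 and 42.5 in progenitors and precursors, 352 and 399 in Krt5+ basal cells and 23904 and 19018 in macrophages. Both sustentacular libraries were above all 8 epithelial and neuronal sums and below both macrophage sums. The log2 fold change against non-sensory cells was 3.60 ± 0.23 (SE, adjusted p = 1.7e-05, edgeR). The chains that form the peptide groove followed. *H2-Aa* (ENSMUSG00000036594, chr17:34282744-34287823, minus strand) was at 821 and 708 CPM against 50.4 and 71.5 (log2 fold change 3.46 ± 0.23, adjusted p = 1.7e-05). *H2-Ab1* (ENSMUSG00000073421, chr17:34257689-34269419, plus strand) was at 1257 and 1103 against 77.0 and 127 (3.35 ± 0.24, adjusted p = 3.0e-05). *H2-Eb1* (ENSMUSG00000060586, chr17:34305867-34316674, plus strand) was at 1536 and 1400.1 against 94.8 and 158 (3.35 ± 0.24, adjusted p = 3.0e-05). *Ciita*, the coactivator that switches class II genes on, was at 15.3 and 15.3 CPM against 0 and 5.20 and did not pass the test (adjusted p = 0.054). Against progenitors and precursors *Cd74* rose by 5.78 ± 0.60 on the log2 scale, and the libraries differed there, since the precursors of library 1 held 207 CPM and those of library 2 held 42.5.

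The other listed genes of antigen presentation and interferon response were not called higher against the non-sensory cells. Outside the list, the class II genes *H2-DMa* (137 and 134 CPM) and *H2-DMb1* (188 and 209 CPM) were called higher than in each comparison group. Of the 15 listed genes, 4 were higher against the non-sensory cells, all of class II, and 3 were lower, with a median log2 fold change of -0.13 over the list and 0.04 over all genes. *B2m*, the light chain of class I molecules, was lower at 158 and 182 against 199 and 247 CPM (-0.59 ± 0.16, adjusted p = 0.035). The interferon-induced genes *Ifit1* (70.0 and 72.1 against 281 and 248) and *Ifitm3* (1376 and 1388 against 3212 and 2652) were lower too, with log2 fold changes of -2.12 ± 0.18 and -1.30 ± 0.20. *H2-K1*, a class I heavy chain, was at 523 and 594 against 654 and 595 CPM and did not pass (adjusted p = 0.21). Against mature VSNs 13 of the 15 were higher, and against progenitors and precursors 15 of 15, beside the shares of all genes given above.

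Promoter sequence is shown for *H2-Aa* and *H2-Eb1*, because these genes were high together. They are the genes of the peptide groove named above that have an entry in the RefSeq promoter table of GRCm38.p6. Each stretch is the 120 bases before the start of the gene, 5′ to 3′ on the strand of the gene, and capitals mark CTGATTGG, the Y box of class II promoters, which holds an inverted CCAAT box. *H2-Aa* is at chr17:34287824-34287943 on the minus strand, with the motif starting at -51, and *H2-Eb1* at chr17:34305747-34305866 on the plus strand, with the motif at -62.
H2-Aa: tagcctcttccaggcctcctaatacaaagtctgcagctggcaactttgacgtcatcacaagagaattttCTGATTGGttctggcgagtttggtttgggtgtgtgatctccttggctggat
H2-Eb1: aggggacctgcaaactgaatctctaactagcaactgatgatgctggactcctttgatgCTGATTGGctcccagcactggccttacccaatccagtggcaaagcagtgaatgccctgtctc
Searched on both strands, these 8 letters were in 1346 of 32851 promoter windows of 300 bases (4.10%). They were not in the windows of *H2-DMa* or *H2-DMb1*, class II genes that were high too and whose sequence is not printed. Nor were they in those of *Fezf2* or *Krt18*. This says only that these letters are not there.

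Most of the 213 cells carried class II transcripts, and a minority, whose markers go against the name sustentacular, carried almost none. To compare cells at 1 depth, each was thinned at random to 5000 UMIs, which left out 3 shallower cells and kept 210. Summed *Cd74*, *H2-Aa*, *H2-Ab1* and *H2-Eb1* UMIs had a median of 60 and 48 per cell in libraries 1 and 2, with a range of 0 to 301 and 0 to 198. At least 10 were in 164 of 210 cells (78.1%), 76.1% and 80.2% by library. Another 27 cells had 0 and 19 had 1 to 9. Only 5 cells lay between 5 and 15, so few depend on a limit of 10, which was chosen after the values were seen. The share with at least 10 was 5.26% and 5.00% of non-sensory cells, 11.7% and 12.5% of mature VSNs, 1.68% and 0% of progenitors and precursors and 2.04% and 2.65% of Krt5+ basal cells. Among mature VSNs without a single *Cyp2a5* or *Cyp2g1* UMI, it was 16 of 545 (2.94%). In macrophages it was 79.1% and 72.5%.

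Macrophage markers were low in the same cells. The 4 class II genes of sustentacular cells summed to 21.5% and 21% of their level in macrophages, whereas *C1qa*, *C1qb*, *Tyrobp* and *Ptprc*, genes of macrophages and other leukocytes, summed to 1.25% and 0.927% of theirs. The macrophages were gated on *C1qa* and *C1qb*, so part of the second contrast is set by that gate. Of the 164 cells with at least 10 class II UMIs, 141 had no UMI of those 4 markers after thinning. Cells without a macrophage marker UMI had a median of 51 class II UMIs and cells with one had 66. Without the cells that had any such marker UMI at full depth, 174 members were left and the calls of *Cd74*, *H2-Aa*, *H2-Ab1* and *H2-Eb1* against non-sensory cells kept their direction and their side of the threshold. In the 5 to 10% mitochondrial cells, 389 of 459 (84.7%) and 313 of 360 (86.9%) had at least 10 class II UMIs of 5000, and 347 and 273 of these had no macrophage marker UMI.

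**Figure D1:**
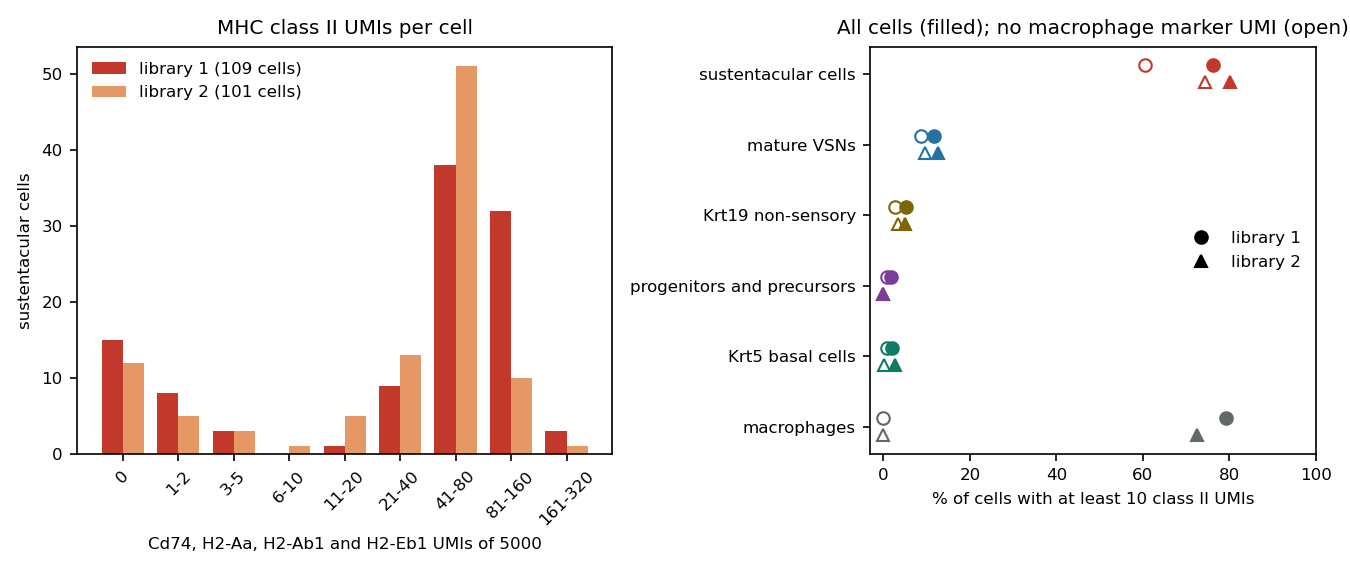
Left, sustentacular cells (number of cells) by their summed class II UMIs after thinning to 5000 UMIs, for 109 cells of library 1 and 101 of library 2. Right, percent of cells of each group with at least 10 class II UMIs (filled) and with at least 10 and no macrophage marker UMI (open), circles for library 1 and triangles for library 2; sustentacular cells were at 76.1% and 80.2%, beside macrophages and above the other 4 groups.

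The members with few class II transcripts differed from the rest in the genes named here. They met the gate with less *Fezf2* and *Krt18*, markers of its label that the gate did not use, although *Krt18* had a UMI in 100% of them. After thinning, *Fezf2* had a UMI in 26.1% of the members under 10 class II UMIs, 78.0% of the others and 16.9% of Krt19+ non-sensory cells. Mean *Krt18* was 17.5 and 15.6 UMIs of 5000 in the members under 10 and 18.9 in non-sensory cells, and *Krt8* was 9.62 and 9.15 and 9.74. *Cyp2f2* had a UMI in 84.8% and 84.6%. In these 4 genes the members under 10 were nearer to non-sensory cells than to the other members, and they are called here by the gate alone. They are part of every sum in this text. With the 172 members that had a *Fezf2* UMI, 31 of 34 gene calls followed against non-sensory cells were kept, and those of *Ces1d*, *Notch1* and *Ptn* were lost. This division of the members is a description, since it was made after the values were seen and within the same cells, and no test was run. The 46 cells under 10 class II UMIs (26 and 20 by library) had median depths of 17651.5 and 20872 UMIs against 12378 and 12028 in the 164 others. *Cyp2a5*, which the gate used, was close in both, at 11.6 and 11.6 mean UMIs of 5000 in cells with at least 10 and 10.7 and 9.90 in cells under 10. *Fezf2* was at 1.96 and 2.12 in the first and 0.385 and 0.400 in the second. *Igfbp2*, a binding protein of insulin-like growth factors, was at 5.52 and 4.99 against 0.308 and 0.050. *Meg3*, an imprinted long non-coding RNA, was at 11 and 17.6 against 0.462 and 0.200. Every library mean of these 3 genes was higher in the cells with at least 10 class II UMIs. *Krt18* (45.8 and 42.7 against 17.5 and 15.6), the cyclophilin gene *Ppic* (17.0 and 18.2 against 1.04 and 0.600), the retinoic acid carrier *Crabp1* (3.49 and 2.75 against 0.423 and 0.050) and the lipid peroxidase *Gpx4* (14.3 and 14.1 against 4.27 and 4.50) ran the same way.

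Other genes were higher in the 46 cells. *Cyp2f2*, a cytochrome P450 of airway and nasal epithelium, was at 8.96 and 6.65 mean UMIs in cells under 10 and 0.133 and 0.210 in cells with at least 10, with a UMI in 84.8% and 11% of cells. *Ltf*, the secreted iron-binding lactoferrin, was at 37.2 and 48.0 against 0.181 and 1.06. The secreted *Wfdc18* was at 409 and 413 against 2.10 and 4.09. The water channel *Aqp5* (2.08 and 3.20 against 0.0241 and 0.0617) and the Notch effector *Hes1* (5.35 and 4.0 against 1.90 and 2.25) ran the same way. *Prdx6*, a peroxidase, was mixed at 48.0 and 30.6 in the 46 and 36.3 and 37.1 in the others. These means pool unlike cells. Of all thinned UMIs of members, 5 cells held 47.6% for *Wfdc18*, 41.8% for *Ltf* and 41.1% for *Cyp2f2*. Of the 46, 1 cell had 2534 *Wfdc18* and 0 *Reg3g* UMIs and another had 3 and 224. A further cell had 7 *Igfbp2* and 65 *Krt18* UMIs.

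The same division was present in the 5 to 10% mitochondrial cells, which the rule had not used but which come from the same libraries. Of 819 thinned cells, 10 and 12 by library lay between 5 and 15 class II UMIs. *Fezf2* was at 2.50 and 2.42 with at least 10 class II UMIs and 0.600 and 0.596 under 10, *Meg3* at 13 and 16.9 against 0.157 and 1.04, and *Igfbp2* at 5.14 and 4.56 against 0.157 and 0.106. *Cyp2f2* was at 0.365 and 0.383 against 9.59 and 10.7, and *Ltf* at 2.16 and 2.04 against 42.5 and 43.4. The order of the 2 sets of cells was the same in both libraries for each of these 5 genes. *Prdx6*, mixed in the members, was higher here in the cells under 10, at 79.3 and 65.1 against 37.8 and 35.4.

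**Figure D2:**
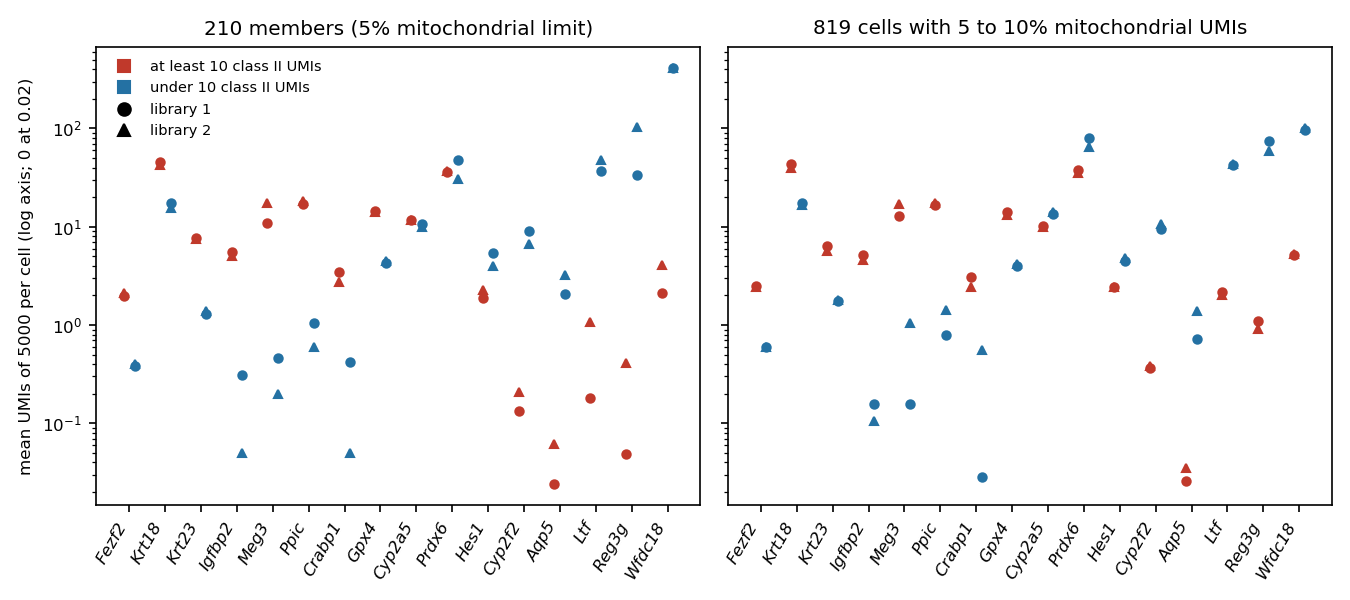
Mean UMIs of 5000 per cell (log axis, 0 drawn at 0.02) of 16 genes in cells with at least 10 (red) or under 10 (blue) class II UMIs, circles for library 1 and triangles for library 2, in 210 members (left) and in 819 cells with 5 to 10% mitochondrial UMIs (right). *Fezf2*, *Igfbp2*, *Meg3* and *Ppic* are higher in red and *Cyp2f2*, *Aqp5*, *Ltf*, *Reg3g* and *Wfdc18* higher in blue in both panels.

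Across all thinned members of 1 library, *Cd74* rose and fell with several genes that differed between the members with few class II transcripts and the rest. Over the 109 and 101 thinned cells, Spearman's rho with *Cd74* was 0.85 and 0.87 for *H2-Ab1*, 0.63 and 0.61 for *Igfbp2*, 0.60 and 0.63 for *Meg3*, and 0.66 and 0.58 for *Ckb*, the brain-type creatine kinase. It was -0.63 and -0.63 for the chemokine gene *Cxcl17*, -0.62 and -0.53 for *Cyp2f2* and -0.62 and -0.43 for *Ltf*. Of 1463 genes with a mean of at least 0.5 thinned UMI, these are among those with the strongest relation in both libraries. The cells share a library and a depth of 5000, and the values are a description with no p. They pool the members with few class II transcripts with the rest. They therefore cannot separate a difference between these sets from a relation within either set, and a relation within either set was not tested.

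Enzymes of xenobiotic metabolism, the textbook property of these cells, were counted in 2 lists, leaving out *Cyp2a5* and *Cyp2g1* of the gate. Against non-sensory cells 5.98% of all genes were called higher and 5.84% lower. Of 19 tested phase I genes (oxidation and hydrolysis), 6 were higher than in non-sensory cells (31.6%) and 2 lower (10.5%), with a median log2 fold change of 0.51. Among the 6, *Aldh1a1* had a UMI in only 34 of 213 members. It was at 45.5 and 48.8 CPM in members and 14.4 and 13.8 in the 5 to 10% mitochondrial cells. Of 28 tested phase II and redox genes, 8 were higher and 3 lower, with a median of 0.32. *Por*, the reductase that feeds electrons to all microsomal cytochrome P450 enzymes, was at 560.0 and 556 CPM against 213 and 221 (log2 fold change 1.15 ± 0.17, adjusted p = 0.0015). *Cyp2j6*, a P450 of fatty acid oxidation, was at 207 and 219 against 47.4 and 48.1 (1.94 ± 0.18). The sustentacular libraries were above the non-sensory ones for both, and the values within each group were close. Among conjugating enzymes, the glucuronosyltransferase *Ugt2a2* (ENSMUSG00000029268, chr5:87459490-87482260, minus strand) was at 106 and 111 against 6.91 and 9.09 (3.56 ± 0.28, adjusted p = 4.0e-05) and had no UMI in progenitors and precursors, so sustentacular cells were at least 92.7-fold higher by a floor of 3 counts over the group. The glutathione transferase *Gstm1* was at 815 and 822 against 216 and 233 (1.66 ± 0.17, adjusted p = 1.9e-04), and its family holds close copies that share sequence. *Gpx4* was at 2021 and 2152 against 592 and 725 (1.46 ± 0.18, adjusted p = 4.0e-04).

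Other enzymes of the same lists were lower than in non-sensory cells. The carbonyl reductase *Cbr2* was at 2994 and 2957 CPM against 5058 and 4227 (-0.86 ± 0.20, adjusted p = 0.018). *Prdx6* was at 6531 and 6286 against 10125 and 8304 (-0.74 ± 0.20, adjusted p = 0.038), a call near the threshold that was lost in 5 alternatives (adjusted p 0.052 to 0.078). The esterase *Ces1d*, at 195 and 208 against 119 and 110.4 (adjusted p = 0.049), was called higher as near the threshold, and without the limit on receptor UMIs its log2 fold change became -0.18 (adjusted p = 0.43). *Cyp2f2* was at 484 and 452 against 519 and 621 and did not pass (adjusted p = 0.11), and 44.9% of its UMIs came from 5 members. Against mature VSNs 19 of 21 phase I and 26 of 28 phase II genes were higher, beside 25.7% of all genes. Against progenitors and precursors 17 of 20 and 25 of 28 were higher, beside 26.2% of all genes.

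Notch pathway genes were compared gene by gene. *Hes1* (ENSMUSG00000022528, chr16:30064384-30067796, plus strand), the main repressor downstream of Notch, was at 487 and 521 CPM in sustentacular cells, 748 and 857 in non-sensory cells, 660.3 and 740.4 in Krt5+ basal cells, 65.1 and 44.4 in progenitors and precursors and 34.9 and 52.7 in mature VSNs. All 3 epithelial groups were above both neuronal ones. The log2 fold change was 3.54 ± 0.22 against progenitors and precursors (adjusted p = 3.1e-07), 3.67 ± 0.19 against VSNs (adjusted p = 2.9e-05) and -0.88 ± 0.17 against non-sensory cells (adjusted p = 0.0061). A *Hes1* UMI was present in 194 of 213 cells (91.1%), against 21.6% of mature VSNs and 25.8% of macrophages. *Hey1*, a related repressor, was at 170.2 and 229 CPM, 149 and 213 in non-sensory cells and 53.1 and 47.2 in progenitors and precursors. It was higher than in the latter (2.33 ± 0.19, adjusted p = 2.3e-06), and against non-sensory cells its fold change was -0.07 ± 0.18 (adjusted p = 0.88). *Hes5* showed the opposite order, at 0 and 0.611 CPM in sustentacular cells (1 UMI in all) and 83.7 and 112 in progenitors and precursors (adjusted p = 3.4e-07).

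The receptors differed from one another. *Notch1* (ENSMUSG00000026923, chr2:26457903-26516663, minus strand), the receptor the study centers on, was at 23.0 and 31.8 CPM in sustentacular cells, 39.5 and 57.2 in non-sensory cells, 41.8 and 63.3 in progenitors and precursors and 3.88 and 5.59 in mature VSNs. It passed against VSNs (2.65 ± 0.28, adjusted p = 4.2e-04) and, lower, against non-sensory cells (-1.02 ± 0.25, adjusted p = 0.024), but not against progenitors and precursors (-0.56 ± 0.25, adjusted p = 0.083). The call against non-sensory cells was lost at a mitochondrial limit of 10% (-0.35, adjusted p = 0.096), with members that had a *Fezf2* UMI (-0.76, adjusted p = 0.073) and with DESeq2 (adjusted p = 0.16). *Notch2* was at 17.4 and 28.1 against 2.66 and 2.83 CPM in progenitors and precursors (3.35 ± 0.44, adjusted p = 8.0e-05) and *Notch3* at 15.3 and 26.3 against 1.33 and 0.944 (4.38 ± 0.54, adjusted p = 5.7e-05). Neither passed against non-sensory cells (adjusted p = 0.48 and 0.34). Thus of the receptors 2 were higher than in the neural precursors and *Notch1* was not.

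The ligands differed as well. *Dll4* had no UMI in 213 sustentacular cells, at least 29.4-fold below the 18.6 and 33.1 CPM of progenitors and precursors by a floor of 3 counts over the group, and *Dll3* had none either. *Jag2* was at 4.60 and 5.50 CPM, lower than in all 3 groups, for example 21.7 and 31.2 in non-sensory cells (-2.56 ± 0.38, adjusted p = 0.0014). *Jag1* was at 15.3 and 11.6 CPM against 5.31 and 5.67 in progenitors and precursors (1.66 ± 0.43, adjusted p = 0.0075). Without the limit on receptor UMIs the calls of *Jag1* and *Jag2* against progenitors and precursors were lost (0.55, adjusted p = 0.31, and -0.15, adjusted p = 0.67), as was that of *Jag1* with DESeq2 (adjusted p = 0.093) and that of *Jag2* with thinned cells (adjusted p = 0.095). The fringe enzyme *Mfng*, which sugar-modifies Notch receptors, was at 3.07 and 2.44 CPM in sustentacular cells and 254 and 274 in progenitors and precursors (-6.16 ± 0.26, adjusted p = 4.6e-08). *Psen2*, a catalytic subunit of the gamma-secretase that releases the Notch intracellular domain, was at 155 and 162 against 23.7 and 14.3 CPM in non-sensory cells (2.80 ± 0.26, adjusted p = 9.1e-05). Of 17 modifiers, 1 was higher and 1 lower (*Adam10*), which is about the share of all genes (5.98% and 5.84%).

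By list against non-sensory cells, 0 of 6 tested Notch receptors and ligands were higher and 2 lower, and 0 of 9 targets were higher and 5 lower (*Hes1*, *Ccnd1*, *Id1*, *Id3* and *Sox9*), with medians of -0.88 and -0.90 on the log2 scale. In that comparison 5.98% of all genes were higher and 5.84% lower. Against progenitors and precursors 3 of 9 receptors and ligands were higher and 4 lower, and 3 of 11 targets higher and 4 lower, beside 26.2% and 23.1% of all genes, so the targets called higher were near the share of all genes. Among these targets the cell cycle gene *Ccnd1* was at 27.1 and 30.5 CPM against 185 and 208 in progenitors and precursors (-2.40 ± 0.18) and *Bcl11b*, a transcription factor of basal VSNs, at 5.11 and 0 against 102 and 139.8 (-5.02 ± 0.50, adjusted p = 1.1e-05). The study describes the transcription factor *Meis2* in both sustentacular cells and apical VSNs. It had a UMI in 192 of 213 sustentacular cells (90.1%) and 87.3% of mature VSNs. *Meis2* was at 236 and 271 CPM here, below mature VSNs at 605 and 538 (-1.05 ± 0.12, adjusted p = 5.4e-04) and progenitors and precursors at 618 and 692 (-1.00 ± 0.16), and not called against non-sensory cells at 271 and 335 (adjusted p = 0.097). Without the limit on receptor UMIs the difference from VSNs was -0.34 (adjusted p = 0.064).

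**Figure D3:**
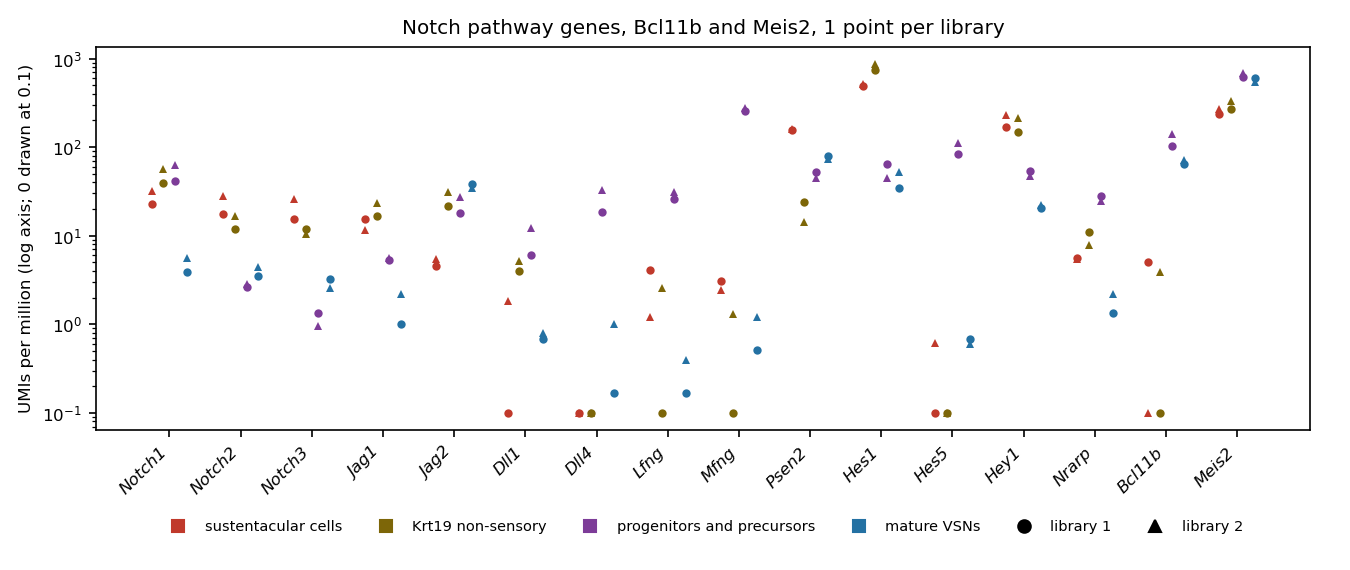
CPM (log axis, 0 drawn at 0.1) of 14 Notch pathway genes, *Bcl11b* and *Meis2* in sustentacular cells, Krt19+ non-sensory cells, progenitors and precursors and mature VSNs, circles for library 1 and triangles for library 2. *Hes1* and *Hey1* are high in sustentacular and non-sensory cells, and *Dll4*, *Mfng*, *Hes5* and *Bcl11b* are high in progenitors and precursors, where *Dll4* was at 18.6 and 33.1 CPM and sustentacular cells had no UMI.

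Of 20 tested transcription factors of supporting and nasal epithelial cells, 2 were higher than in non-sensory cells and 8 lower, beside 5.98% and 5.84% of all genes. The median log2 fold change was -0.64. *Fezf2* was at 261 and 320.0 CPM against 32.6 and 62.4 in non-sensory cells (2.43 ± 0.23, adjusted p = 1.0e-04), and no sum of another group was above 62.4 CPM. *Lhx2*, a factor of neural precursors, was at 35.3 and 16.5 against 0.988 and 5.20, with 54.2% of its UMIs in 5 members, and at 1202 and 1252 in progenitors and precursors. *Sox9*, found in glands and ducts, was at 83.3 and 75.7 against 199 and 225 (-1.61 ± 0.18, adjusted p = 2.5e-04). *Trp63*, which maintains basal epithelial cells, had 1 UMI in all sustentacular cells (0 and 0.611 CPM) and was at 51.4 and 33.8 in non-sensory and 111 and 139.9 in Krt5+ basal cells. *Klf5*, *Six3*, *Meis1*, *Nr2f2* and *Hes1* were lower as well. The factors called lower against non-sensory cells thus include those of basal and ductal epithelium.

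Keratin and junction genes divided evenly, with 8 of 26 higher and 8 lower than in non-sensory cells, beside 5.98% and 5.84% of all genes. *Krt23* was at 1105 and 1070.4 CPM against 210.4 and 227 (2.11 ± 0.18, adjusted p = 6.6e-05) and *Krt8*, the partner of *Krt18*, at 3989 and 3836 against 2077 and 1884 (0.77 ± 0.19, adjusted p = 0.025). The adhesion gene *Cdh2* (N-cadherin) was at 87.9 and 109 against 11.9 and 23.4 (2.30 ± 0.27, adjusted p = 3.7e-04), whereas *Cdh1* (E-cadherin) was at 40.9 and 70.8 against 98.8 and 105 (-1.10 ± 0.23, adjusted p = 0.01). The 2 cadherins therefore moved in opposite directions. Mature VSNs held more *Cdh2*, 144 and 147 CPM (-0.44 ± 0.11, adjusted p = 0.015), a call that was lost in 3 alternatives and turned to 0.014 (adjusted p = 0.93) without the limit on receptor UMIs. The tight junction genes *Cldn3* and *Cldn7* were higher than in non-sensory cells, with log2 fold changes of 1.80 ± 0.18 and 1.08 ± 0.20. The basal and stratified keratins *Krt14* and *Krt17* and the hemidesmosome integrin *Itgb4* were lower, at -2.06 ± 0.29, -0.95 ± 0.23 and -1.78 ± 0.34.

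Among growth factor and guidance genes *Igfbp2* stood highest against the non-sensory cells. *Igfbp2* (ENSMUSG00000039323, chr1:72824503-72852474, plus strand) was at 685 and 694 CPM against 28.6 and 32.5 in non-sensory cells (4.29 ± 0.21, adjusted p = 3.6e-06), 84.5 and 91.8 in mature VSNs and 120.2 and 88.8 in progenitors and precursors. It had a UMI in 171 of 213 cells (80.3%), against 6.00% of non-sensory cells and 4.32% of macrophages. The endothelin receptor gene *Ednrb* was at 165 and 183 against 31.6 and 45.5 (1.98 ± 0.20) and the ligand gene *Wnt5a* at 85.8 and 130.1 against 15.8 and 31.2 (2.02 ± 0.29, adjusted p = 0.0011). Both sustentacular libraries were above both non-sensory ones for all 3 genes. Of the 31 tested, 7 were higher and 6 lower, the latter including the receptors *Egfr* and *Fgfr2* (4.60 and 6.72 against 53.3 and 57.2 CPM, -3.49 ± 0.29) and *Ptn*, whose log2 fold change of -0.75 ± 0.20 became 0.065 (adjusted p = 0.80) at a mitochondrial limit of 10%. Among retinoid genes *Crabp1*, which binds retinoic acid, was at 429 and 366 against 14.8 and 36.4 (3.81 ± 0.29, adjusted p = 4.0e-05). Of 12 tested retinoid genes 2 were higher and 3 lower. For both lists the shares of all genes were 5.98% higher and 5.84% lower.

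More ion and water transport genes were called lower than higher. Of 24 tested, 2 were higher than in non-sensory cells (*Kcnk1* and the glucose transporter *Slc2a1*) and 8 lower, beside 5.98% and 5.84% of all genes. The median log2 fold change was -0.85. The water channel *Aqp3* was at 55.7 and 44.0 CPM against 528 and 511 (-3.58 ± 0.22, adjusted p = 1.7e-05), *Aqp5* at 195 and 165 against 682 and 469 (-1.89 ± 0.25, adjusted p = 6.5e-04) and *Aqp4* at 121 and 152 against 289 and 298 (-1.32 ± 0.16). All 3 aquaporins were thus lower in both libraries, and 5 members held 49.7% of the *Aqp3* and 46.2% of the *Aqp5* UMIs. Most *Aqp5* UMIs lay in the members with under 10 class II UMIs, and in the 5 to 10% mitochondrial cells *Aqp5* was at 32.6 and 32.0 CPM. *Kcnk1*, a potassium channel, was at 405 and 424 against 216 and 251 (0.62 ± 0.16, adjusted p = 0.033), and its fold change was -0.014 (adjusted p = 0.96) without the limit on receptor UMIs. Against progenitors and precursors 21 of 23 were higher, beside 26.2% of all genes.

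**Figure D4:**
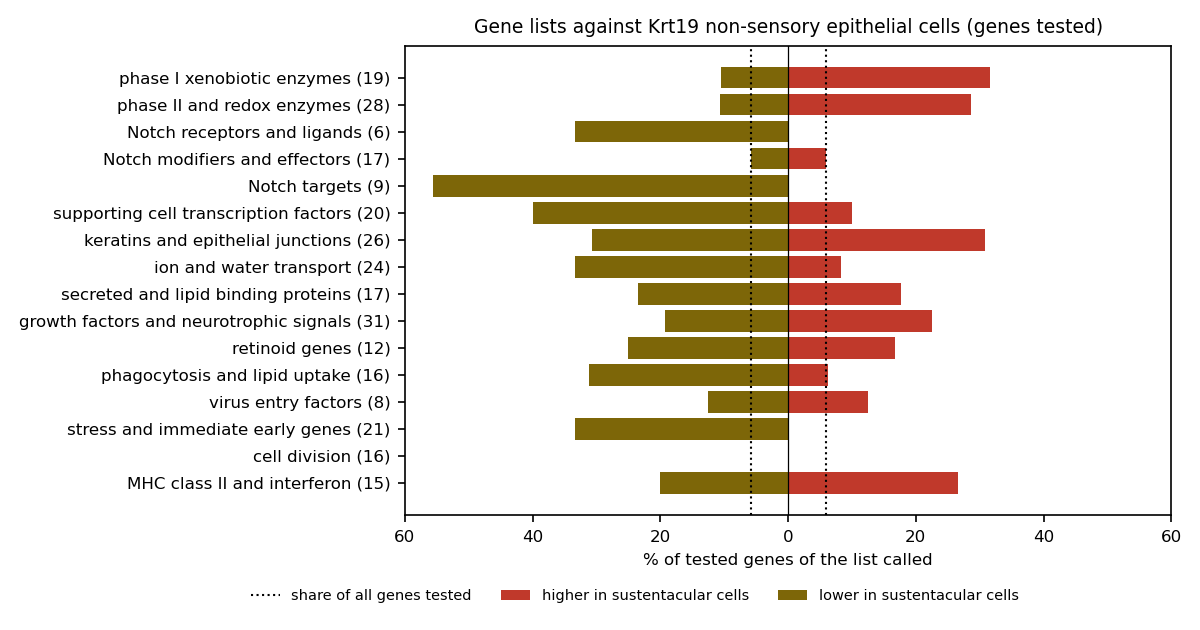
Percent of the tested genes of each of 16 lists (number tested in parentheses) called higher (right, red) or lower (left, brown) in sustentacular cells than in Krt19+ non-sensory cells by edgeR. Dotted lines mark the shares of all genes, 5.98% higher and 5.84% lower; Notch targets show 5 of 9 lower and none higher, and phase I enzymes 6 of 19 higher.

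The UMIs of several secreted proteins came from few cells, so their sums describe those cells. *Obp2a*, an odorant-binding lipocalin, was at 34129 and 3589 CPM, and 1 cell of library 1 held 30465 of its 72672 UMIs, 41.7% of the 73008 UMIs of that cell. Its median per cell was 3 UMIs in each library, and without the highest cell of each library the levels were 19282 and 231 CPM. *Bpifa1*, an antimicrobial airway protein, had UMIs in 7 cells (0.511 and 5419 CPM), and *Lcn4*, a lipocalin of vomeronasal glands, in 73 cells with 52.6% of its UMIs in 1. These are genes of glands, and their UMIs did not fall on sustentacular cells as a whole. After thinning, *Obp2a* had a mean of 201 and 20.15 UMIs by library in the members under 10 class II UMIs and 1.60 and 1.44 in the others. *Lcn3* was at 149 and 93.85 against 0.530 and 0.605, and *Lcn4* at 45.5 and 2.05 against 0.193 and 0.160. In the 5 to 10% mitochondrial cells *Obp2a* did not follow this division, at 2.11 and 1.21 against 1.79 and 1.80. The 10 most uneven genes among members were *Wfdc18*, *Lcn3*, *Obp2a*, *Reg3g*, *Ltf*, *Apoe*, *Dmbt1*, *A2ml1*, *Wfdc2* and *Obp2b*. Their ratio of variance to mean after thinning ran from 29.1 to 1183 as the lower of the 2 libraries, against a median of 1.12 over 1335 genes. In the 5 to 10% mitochondrial cells *Obp2a* was at 289 and 244 CPM and *Lcn3* at 116 and 95.3, against 22381 and 10464 for *Lcn3* in the members. Of 17 tested secreted genes 3 were higher than in non-sensory cells (*Lcn4*, *Lcn11* and *Bpifa1*) and 4 lower (*Muc1*, *Reg3g*, *Wfdc2* and *Ltf*), beside 5.98% and 5.84% of all genes. *Ltf* was at 2967 and 3278 against 6161 and 6506 (-1.23 ± 0.17, adjusted p = 0.001), and against non-sensory cells without a *Cyp2a5* or *Cyp2g1* UMI the difference was -0.34 (adjusted p = 0.45).

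The genes with the highest ratio of the sustentacular level to the highest of the 5 other groups were, after *Cyp2a5* of the gate, *Khdc1a* (20.8), *Lcn4* (13.2), *Ugt2a2* (9.82), *Abca13* (9.67), *Obp2b* (9.65), *Plat* (8.78), *Agr3* (8.77), *Svopl* (8.69) and *Meg3* (8.64). *Plat*, the tissue plasminogen activator, was at 274 and 394 CPM against 18.8 and 39.0 in non-sensory cells and 28.5 and 47.7 in mature VSNs. *Meg3* (ENSMUSG00000021268, chr12:109541001-109571726, plus strand) was at 1421 and 2267 against 53.3 and 159.8 in the former and 164 and 263 in the latter, and *Rian*, a non-coding RNA of the same imprinted cluster, at 235 and 372 against 6.91 and 54.6 in non-sensory cells. *Ppic* was at 2199.7 and 2425 against 164 and 285 in non-sensory cells. These levels were high in both libraries and spread over cells, with 13.4% of the UMIs in 5 members for *Agr3* and less for *Plat*, *Meg3*, *Rian* and *Ppic*. *Lmcd1*, *Adgrg6*, *Cpxm2*, *Prss12*, *Calml4*, *Ctf2*, *Prss36* and *Col6a3* completed the 20, with ratios down to 7.27. The ratios of *Lcn4* and *Obp2b* rested on library 1, since *Lcn4* was at 7996 and 282 CPM and *Obp2b* at 2407 and 338, and without the highest cell of each library library 2 held 77.9 and 19.2 CPM. In all, 443 genes were called higher in sustentacular cells than in each of the 3 groups and 35 lower than in each. Against non-sensory cells alone 743 of 12422 genes (5.98%) were higher and 725 (5.84%) lower. The 3 comparisons reuse the same sustentacular sums, and the 443 include genes with most UMIs in few cells, such as *Bpifa1* and *Lyz2*. Highest in level, besides *Wfdc18*, *Obp2a*, *Lcn3* and *Lcn4*, were *Malat1*, *Tmsb4x*, *H3f3b*, *Krt18*, *Prdx6*, *Actg1*, *Cd74*, *Actb*, *Hspb1*, *Ubb*, *Fth1*, *Gm42418*, *Atf3*, *Krt8*, *Ftl1* and *Nupr1*.

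Some of the largest fold changes rested on a handful of cells. Against mature VSNs the 5 genes with the largest rise were *Clca3b*, *Gm19935*, *AU040972*, *Tmem212* and *Adam8*, which had a UMI in 8 to 15 of 213 cells, with 81.9% of the UMIs of *Clca3b* in 5 cells. The 5 with the largest fall were *H2-M10.1*, *H2-M10.3*, *H2-M10.6*, *Faim2* and *Gm17396*, with no UMI in sustentacular cells. The H2-M10 genes are class I genes of basal VSNs and near copies of one another. Against non-sensory cells *Rnf39*, *Lyz2*, *Khdc1a*, *Lcn4* and *Cxcl10* rose most and *Trp63*, *Fas*, *Slpi*, *Fat2* and *Vwa1* fell most. The macrophage gene *Lyz2* was at 60.3 and 2435 CPM with 96.0% of its UMIs in 5 members. Against progenitors and precursors *Clca3b*, *Gm19935*, *Serpinb11*, *Ugt2a2* and *Ndufa4l2* rose most and *Col9a2*, *Sct*, *Scg2*, *Gm14226* and *Inka1* fell most. Of all genes called higher, 550 of 3742 (14.7%) against VSNs, 55 of 743 (7.40%) against non-sensory cells and 387 of 3497 (11.1%) against progenitors and precursors had at least 50% of their sustentacular UMIs in 5 cells.

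The remaining lists showed these counts. Of all genes, 5.98% were higher and 5.84% lower against non-sensory cells, 25.7% and 28.3% against VSNs, and 26.2% and 23.1% against progenitors and precursors. Of 18 cell division genes, all 18 were lower than in progenitors and precursors, for example *Mki67*, at 0.511 and 16.5 CPM against 189 and 98.2. None of 16 was called against non-sensory cells. Against VSNs 6 of 17 were called higher, and 62.7% of the 110 UMIs of one of them, *Ube2c*, came from 1 cell. Of 21 stress and immediate early genes 0 were higher and 7 lower than in non-sensory cells, for example *Fos* at 2757 and 2739.8 against 3875 and 4243 CPM (-0.77 ± 0.18), and 19 of 21 were higher than in VSNs. Of 16 genes of phagocytosis and lipid uptake 1 was higher than in non-sensory cells (*Scarb1*), about the share of all genes, and 5 were lower. Of the same 16, 12 were higher than in progenitors and precursors. Of 8 host factors of virus entry, the protease gene *Tmprss4* was higher at 140.0 and 161 against 45.4 and 52.0 (1.42 ± 0.19) and *Ctsl* lower.

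**Figure D5:**
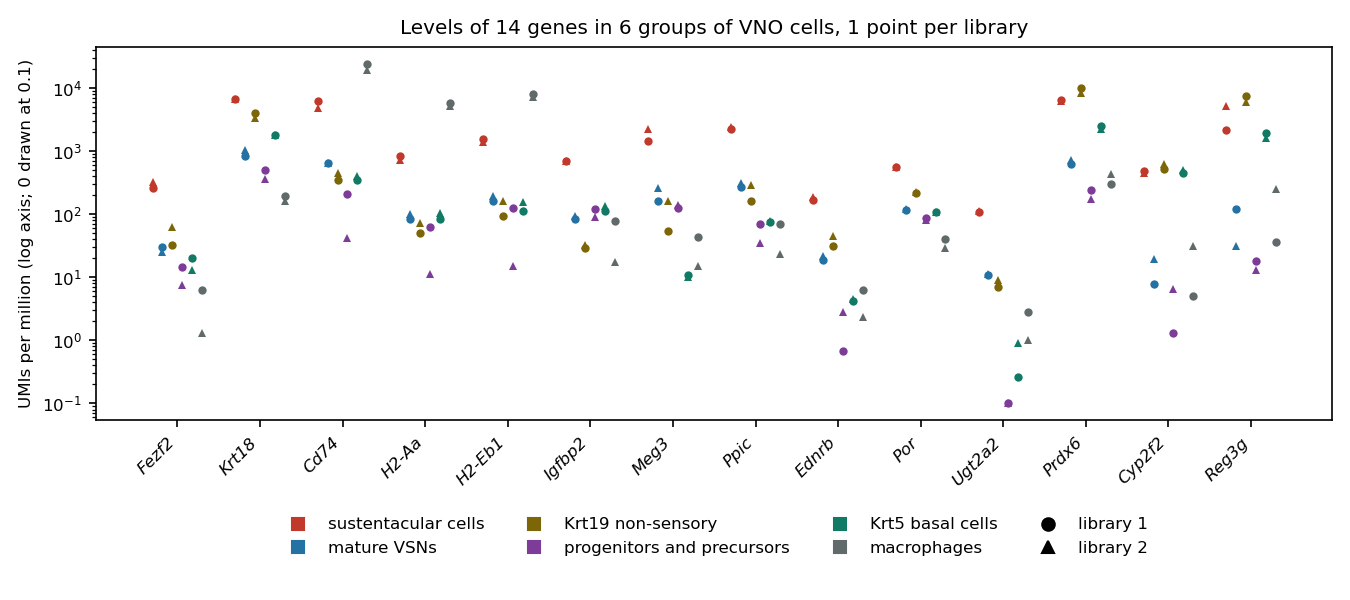
CPM (log axis, 0 drawn at 0.1) of 14 genes in sustentacular cells and 5 other groups of VNO cells, 1 point per library, circles for library 1 and triangles for library 2. *Fezf2*, *Igfbp2*, *Meg3*, *Ppic*, *Ednrb*, *Por* and *Ugt2a2* are highest in sustentacular cells, the class II genes are second to macrophages, and *Prdx6*, *Cyp2f2* and *Reg3g* are as high or higher in non-sensory cells, where *Prdx6* was at 10125 and 8304 CPM.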

How the data were processed

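Cells of the P60 VNO were measured in 2 libraries. The deposited values are raw UMI counts per gene and barcode, which the authors made with Cell Ranger 4 on mm10. No source used here gives the depth setting used to merge the libraries. No deposited column belonged to another sample (0 columns). Gene positions come from GENCODE vM21 (32158 of 32285 identifiers matched).

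Cells were filtered by the limits the study states (200 to 9000 genes, at most 5% UMIs from 13 mitochondrial genes), which left 10591, a count that differs slightly from the study's own. Mature VSNs had at least 5 *Omp* and 5 receptor UMIs (333 genes), non-sensory cells at least 5 *Krt19* and 1 *Serpina1e*, precursors at least 2 UMIs of early neurogenic genes, *Neurog1* and *Neurod1* among them (the full set is not reported here), basal cells at least 5 *Krt5* and 1 *Krt14*, and macrophages at least 10 *C1qa* and *C1qb*. All had under 10 enzyme UMIs, all but basal cells under 5 *Krt5*, and all but VSNs under 5 receptor UMIs. In all, 5 cells lay in 2 groups. Doublets were called with Scrublet in scanpy 1.11.5 (218 of the filtered cells, 2.06%) and kept, with an alternative without them. UMIs were summed per library and group. Genes with at least 10 UMIs were tested with edgeR 4.0.16 in R 4.3.3 (TMM size factors, quasi-likelihood, Benjamini-Hochberg), and DESeq2 1.42.0 was an alternative. Printed CPM use total UMIs without size factors. Other steps used Python 3.11.15. The libraries counted as 2 samples because the labels give them as such. Sums of the members differed by more than counting noise (chi-square per degree of freedom 10.5), which uneven cells within 1 pool can also give. Both groups of a library share 1 capture, so the library numbers pair the sums, and the correlation of deviations was 0.0493 for VSNs, 0.0603 for non-sensory cells and -0.00115 for precursors. With the replicate block 8487, 1766 and 6750 genes were called. The scripts were tested on simulated counts.

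Named genes were those of the lists that the results turn on, the 5 called genes with the largest change in each direction in each comparison (same direction in both libraries, at least 20 CPM in the higher group, gate and receptor genes left out), the 20 highest in level without ribosomal and mitochondrial genes, the 20 with the highest ratio to the other groups (at least 50 CPM) and the 10 most uneven between members. Genes of the divided class II cells were chosen after their values were seen. The members and lists were chosen with earlier results of these data known. Alternatives were other gate limits, other mitochondrial limits, no doublets, thinned cells, other low-count filters, other size factors, DESeq2, the replicate block and leaving out a library.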

Additional observations from a re-analysis of the deposited data

How the results depend on the processing

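The number of sustentacular cells depended on the gate. It was 1047 at a mitochondrial limit of 10%, 1268 with no limit and 834 for the cells between 5 and 10% alone, 131 with at least 20 enzyme UMIs and 272 with at least 5, 417 without the receptor limit, 172 with a *Fezf2* UMI and 174 without macrophage marker UMIs. The alternatives with no mitochondrial limit, with a *Fezf2* UMI and without macrophage markers were chosen after seeing the data, as was the one with comparison cells that had no *Cyp2a5* or *Cyp2g1* UMI. Against non-sensory cells 4508 genes were called at a mitochondrial limit of 10%, 3907 without the receptor limit and 815 with DESeq2, and against progenitors and precursors DESeq2 called 4108. The counts under the other alternatives were within 1.5 times. Without the receptor limit the higher share of calls against non-sensory cells was 59.3% in place of 50.6%, and with DESeq2 it was 43.3% (353 higher and 462 lower). The replicate block, which pairs the sums by library, gave 8487, 1766 and 6750 calls against VSNs, non-sensory cells and progenitors and precursors and changed no call of the 54 gene tests followed through every alternative. Of these, *Cdh2* against VSNs (0.014), *Ces1d* (-0.18) and *Kcnk1* (-0.014) against non-sensory cells changed sign without the receptor limit, and *Ptn* (0.065) at a mitochondrial limit of 10%. The cause was not tested. Calls against non-sensory cells were also lost for *Reg3g* in 3 alternatives (adjusted p 0.071 to 0.25), for *Aldh3a2* with DESeq2 (0.20) and for *Krt8* without the receptor limit (0.20 on the log2 scale, adjusted p = 0.50). Leaving out a library gives values with no test. These are ratios of CPM in 1 library without size factors, set against the edgeR fold change with TMM size factors. Of 108 such values, 48 differed from the fit by more than its SE times the square root of 2, none with a change of sign. Part of that difference can come from the size factors, so it does not measure the spread between libraries alone. The 213 cells and 2 libraries limit precision most for genes of few UMIs.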
